A study of Mus musculus with 21 samples.

Results

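A line labelled EPHA2-KO of the mouse pancreatic tumour cell clone 6694c2 was compared with its parental line by RNA sequencing. The comparison took 8 of the 21 libraries of the series, 4 of the parental line (called WT here), which the titles name only by the clone, and 4 of the knockout line that the expression table letters A (called KOA). Cells of both lines had been implanted subcutaneously in C57BL/6 mice without further treatment, and tumour cells were sorted back after 3 weeks, per the labels. The table letters the 2 knockout lines of the clone and the sample titles number them, so which number KOA carries is not given in the sources used here. How EPHA2 was edited, whether a line is a single clone, how the cells were sorted, the age of the mice and how many animals stand behind each set of libraries are not given in those sources either. With 1 line on each side, the loss of EPHA2 and any other difference between these lines cannot be told apart, and p-values measure only the spread between these libraries.

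EPHA2 is a receptor tyrosine kinase that binds ephrin-A ligands on neighbouring cells. In pancreatic tumours the T cell response depends on whether tumour cells display peptides and call T cells in, and interferon-gamma is the main inducer of both. Its receptor activates JAK kinases and STAT factors, which switch on IRF1 and the regulators NLRC5 and CIITA, which drive the class I and class II genes of the major histocompatibility complex (MHC).

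Levels are given as TPM, a relative abundance that is corrected for transcript length and scaled to the same sum in every library. Differences are KOA less WT on the log2(TPM + 1) scale, which understates the change of genes at low levels. A gene was called when limma's moderated two-sided test gave a Benjamini-Hochberg adjusted p under 0.05 over all 13098 genes tested, those with at least 1 TPM in at least 3 of the 8 libraries. Every adjusted p comes from that fit, or from limma again where an altered setting is named. For each gene said to rise or fall, the 4 KOA libraries lay on 1 side of the 4 WT libraries unless an overlap is named. The 15 largest rises and falls are those of called, non-overlapping genes with a mean of at least 5 TPM in the higher group, passing over unnamed gene models and small RNA genes.

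The 8 libraries fell into 3 sets, the 4 WT libraries, KOA libraries 1 and 2, and KOA libraries 3 and 4. The labels give no reason for the split within KOA, and it is described here without a test. The first principal component (47.9% of the variance) placed WT between −31.1 and −22.8 and KOA between 13.7 and 37.9. The second (22.3%) placed KOA libraries 1 and 2 at −26.2 and −35.6 and libraries 3 and 4 at 23.8 and 18.7. Across the tested genes, Pearson's r was 0.98 between KOA libraries 1 and 2, 0.988 between 3 and 4, and 0.961 to 0.969 between the pairs, against 0.982 to 0.990 within WT. Each library summed to 1000000 TPM and had 12437 to 13142 genes at 1 TPM or more, and its depth is unknown. The epithelial keratins Krt8 (2234 to 3496 TPM) and Krt19 (1328 to 2240.0 TPM), the adhesion gene Cdh1 and the pancreatic factor Pdx1 were present in all 8 libraries.

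**Figure D1:**
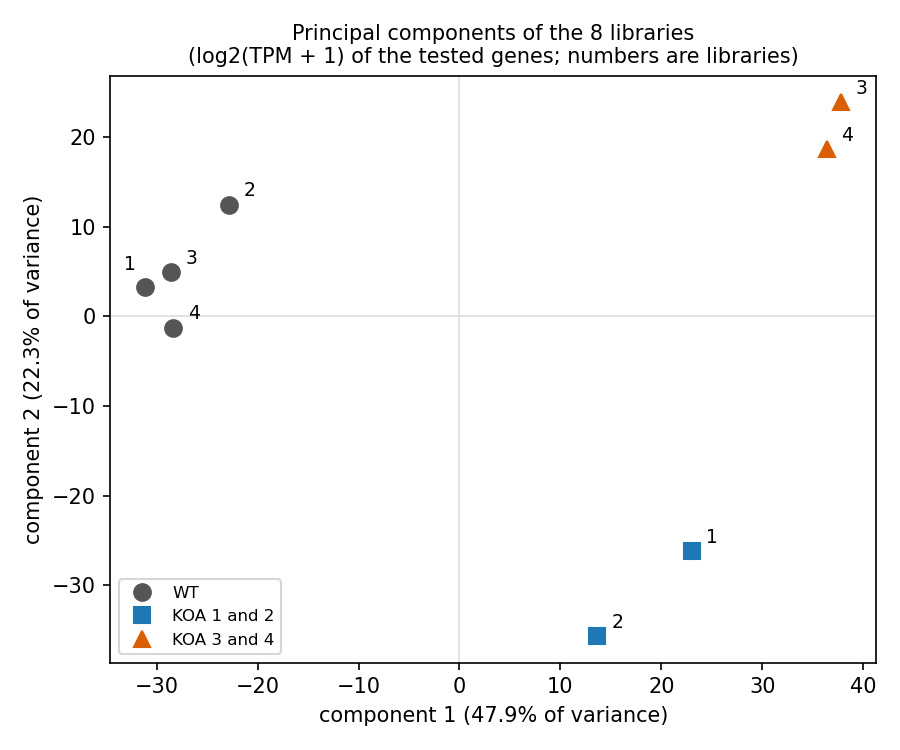
Position of each of the 8 libraries on the first and second principal components of log2(TPM + 1), with the share of variance of each on its axis. The first component separates the 4 WT libraries (−31.1 to −22.8) from the 4 KOA libraries (13.7 to 37.9), and the second separates KOA libraries 1 and 2 from 3 and 4.

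Transcripts that mark other cell types were present in the sorted cells, in amounts that differed between libraries. Summed over 20 macrophage and monocyte markers, the level was 491 to 2961 TPM in WT and 484, 1037, 1897 and 2222 TPM in KOA libraries 1 to 4. WT library 2 stood apart, as Lyz2, the lysozyme of myeloid cells, shows at 115, 513, 121 and 64.8 TPM in the WT libraries and 61.8, 88, 251 and 281 TPM in KOA. None of the 20 markers was called. Fewer cells of a type and less RNA per cell cannot be told apart in such bulk samples.

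Epha2, the targeted gene (chromosome 4, from 141301221 to 141329384 on GRCm38, the assembly that mm10 names), was lower in the line labelled knockout but far from absent. It measured 244, 239.9, 243 and 252 TPM in the WT libraries and 108, 92.1, 129.7 and 129.7 TPM in KOA. All 4 KOA libraries lay below all 4 WT libraries, with libraries 1 and 2 the lowest. The difference was −1.1 ± 0.11 (SE, adjusted p 0.00025), or −1.29 in libraries 1 and 2 and −0.91 in libraries 3 and 4, and an exact two-sided permutation test gave 0.0286, the smallest p that 4 libraries against 4 allow. A gene-level abundance does not show whether the remaining transcripts encode a full receptor. Of the 8 Eph receptor genes tested, 1 rose and 1 fell, and of the 8 ephrin genes 1 fell. The shares of all genes were 14.9% called higher and 8.05% lower, and no conclusion about these families is drawn from so few calls. Among the receptors Epha2 fell and Ephb6, whose kinase domain is inactive, rose by 0.66 ± 0.15 (SE, adjusted p 0.016). The rise of Ephb6 was larger in libraries 1 and 2 (0.90) than in 3 and 4 (0.42). Under quantile normalization the Ephb6 call was lost (0.55, adjusted p 0.062). Of the 8 ephrin genes, Efna5 fell (−0.42 ± 0.10 SE, adjusted p 0.019; −0.25 and −0.60 in the pairs), a call lost without WT library 3 or 4 (adjusted p 0.055 and 0.057), and the other 7 were not called.

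KOA differed from WT at 3009 genes, 23% of those tested. Of these, 1954 (14.9% of the genes tested) were higher and 1055 (8.05%) were lower. A log2 difference of at least 1 was reached by 372 of the higher genes (2.84%) and 138 of the lower (1.05%). The excess of higher calls depended on the scale: median-of-ratios size factors gave 1597 higher and 1698 lower, and quantile normalization 1449 and 1822, because they moved the median difference over all genes (0.07) by −0.07 and −0.10. Dropping WT library 1, 3 or 4 took the count to 1930, 1895 or 1823 genes, and dropping KOA library 2 raised it to 4454. All 3009 called genes had the means of both KOA pairs on the same side of the WT mean. Both pairs lay wholly above the WT range for 2373 tested genes (18.1%) and wholly below it for 1360 (10.4%).

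The lead finding of the comparison was a higher level of interferon-response and antigen-presentation genes in all 4 KOA libraries. The factors of the pathway came first. Irf1, a transcription factor that interferons induce, measured 35.3, 38.5, 41 and 41.2 TPM in WT and 108, 84.2, 121 and 121 TPM in KOA, with libraries 3 and 4 the highest, and rose by 1.44 ± 0.12 (SE, adjusted p 0.00011). The lowest KOA library was 2.04 times the highest WT library.

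Nlrc5, the activator of class I genes, measured 0.874, 1.2, 0.965 and 1.78 TPM in WT and 19, 14.4, 16.9 and 16.1 TPM in KOA, a difference of 3.01 ± 0.14 (SE, adjusted p 1.3e-05), with 3.01 in libraries 1 and 2 and 3.01 in 3 and 4. Ciita, the activator of class II genes, was near 0 in WT at 0.289, 0.314, 0.163 and 0.526 TPM and reached 8.36, 5.34, 3.4 and 4.15 TPM in KOA (2.2 ± 0.23 SE, adjusted p 0.00037). The pairs did not match for Ciita, with libraries 1 and 2 above 3 and 4. Socs1, a feedback inhibitor of JAK kinases, also rose (1.47 ± 0.13 SE, adjusted p 0.00017).

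Counted over the list of interferon regulatory factors, SOCS inhibitors, Nlrc5 and Ciita, 9 of 13 tested genes rose and none fell, with a median difference of 0.68 against 0.07 over all genes tested. Against 14.9% of all genes called higher and 8.05% lower, 4 of 15 interferon receptors, JAK kinases and STATs rose and none fell. Among them were Stat2 (0.94), Stat3 (0.29) and Stat6 (0.21, adjusted p 0.035), the call of Stat6 being lost without any 1 of the WT libraries or KOA library 1 or 4 (adjusted p 0.059 to 0.091), with libraries 3 and 4 alone, with array weights and under both other scalings (0.063 to 0.249). The receptor chain Ifngr1, at 62.1, 61.6, 64.9 and 63.9 TPM in WT and 68.7, 64.2, 57.7 and 54.2 TPM in KOA, was not called (difference −0.05, adjusted p 0.67), and neither was Jak2 (0.09, adjusted p 0.78). Libraries 3 and 4 lay below WT for Ifngr1 and above it for Jak2, while libraries 1 and 2 overlapped WT for both. The transcript of interferon-gamma itself, Ifng, was listed at 0 in the 4 WT libraries and at 0.389, 0, 0 and 0.0966 TPM in KOA.

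T and NK cell markers moved with this result at low levels. Their summed level over 17 genes was 3.86 to 5.41 TPM in WT and 10.6, 7.74, 15.4 and 16.3 TPM in KOA libraries 1 to 4, all above WT. In 8 of the 17 all 4 KOA libraries lay above all WT libraries, against 14.0% of the genes of the table with any value. The T cell receptor chain Cd3g, the cytotoxic granule gene Gzma and Nkg7 were listed at 0 in all WT libraries and above 0 in all KOA libraries, a pattern of 0.232% of those genes. Gzmb, a granzyme, measured 0.060, 0.13, 0.249 and 0.265 TPM in WT and 0.663, 0.519, 2.66 and 4.61 TPM in KOA. The only member that passed the level filter, Cd3d, rose by 0.67 ± 0.20 (SE, adjusted p 0.041) (0.34 in libraries 1 and 2 and 0.99 in 3 and 4), a call lost without any 1 of the WT libraries (adjusted p 0.083 to 0.093) or of KOA libraries 1, 3 or 4, with libraries 1 and 2 alone, with no level filter or under quantile normalization (0.053 to 0.122). Whether these cells had a part in the interferon-response result was not tested.

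The guanylate-binding proteins (GBPs) and immunity-related GTPases (IRGs), which attack the vacuoles of intracellular microbes, rose without exception. All 16 tested genes were called higher, against 14.9% of all genes. The median difference was 2.68 (2.75 in libraries 1 and 2, 2.64 in 3 and 4), with a range of 1.59 to 3.62. Gbp2 went from 11.2, 14.6, 13 and 21.7 TPM in WT to 161, 99.3, 119 and 114 TPM in KOA (2.97 ± 0.21 SE, adjusted p 4.7e-05). Library 1 was the highest, and library 2 the lowest of the 4, still above the highest WT library. Iigp1 measured 2.3, 6.21, 4.32 and 8.76 TPM and 80.7, 65.8, 73.8 and 67.9 TPM (3.62 ± 0.29 SE, adjusted p 9.3e-05). Tgtp1 and Tgtp2 rose by 3.18 and 3.61, but they are near-identical copies between which reads could be split, so their separate values are uncertain.

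Promoter sequences of 5 genes that rose are shown because they hold the motifs of the factors described above. They are the 250 bases before the start in the RefSeq table (GRCm38.p6), 5′ to 3′ on the strand of the gene. Capitals mark 1 motif in each, read on either strand: the core of the interferon-stimulated response element, a pair of GAAA runs with 2 bases between them, bound by IRFs (Gbp2, Cxcl10); the gamma-activated site, TTCNNNGAA, bound by STAT factors (Irf1, Psmb8); or the Y box core ATTGG of MHC promoters (H2-Eb1). Irf1 and Cxcl10 also hold a Y box core, left in lower case.
Irf1 (chr11:53769764-53770013, plus strand): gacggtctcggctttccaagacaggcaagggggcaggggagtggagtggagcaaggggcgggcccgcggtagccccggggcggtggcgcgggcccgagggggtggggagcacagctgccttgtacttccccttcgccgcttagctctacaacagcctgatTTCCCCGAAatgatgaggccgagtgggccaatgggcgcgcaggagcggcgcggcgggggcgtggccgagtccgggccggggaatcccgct
Psmb8 (chr17:34197945-34198194, plus strand): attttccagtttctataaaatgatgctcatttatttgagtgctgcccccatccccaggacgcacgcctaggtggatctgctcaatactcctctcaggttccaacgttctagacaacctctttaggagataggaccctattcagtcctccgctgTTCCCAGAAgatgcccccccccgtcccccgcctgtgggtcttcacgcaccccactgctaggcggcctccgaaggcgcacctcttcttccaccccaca
Gbp2 (chr3:142620413-142620662, plus strand): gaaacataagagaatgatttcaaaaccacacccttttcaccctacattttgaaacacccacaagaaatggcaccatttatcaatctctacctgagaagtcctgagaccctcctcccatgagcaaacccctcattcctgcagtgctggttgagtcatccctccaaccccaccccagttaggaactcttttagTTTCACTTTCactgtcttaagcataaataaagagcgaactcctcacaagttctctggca
Cxcl10 (chr5:92348890-92349139, minus strand): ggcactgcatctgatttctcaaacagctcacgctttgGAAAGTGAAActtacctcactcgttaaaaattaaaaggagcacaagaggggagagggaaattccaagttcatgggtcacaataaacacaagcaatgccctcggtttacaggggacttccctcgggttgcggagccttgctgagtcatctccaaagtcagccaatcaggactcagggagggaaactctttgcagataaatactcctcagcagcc
H2-Eb1 (chr17:34305617-34305866, plus strand): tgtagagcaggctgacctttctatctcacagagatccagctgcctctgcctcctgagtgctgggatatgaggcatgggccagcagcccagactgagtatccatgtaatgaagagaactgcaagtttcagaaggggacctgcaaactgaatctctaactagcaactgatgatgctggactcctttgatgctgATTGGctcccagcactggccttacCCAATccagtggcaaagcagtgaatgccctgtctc

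Searched on both strands from 250 bases before to 50 after the start, the response element core was in 9 of the 10 GBP and IRG genes with a promoter in the table and in 13 of 21 type I interferon effectors. It was in 3.83% of the 9979 tested genes with a promoter and in 3.44% of all 32851 promoters. The gamma-activated site was in 6 of the 10 GBP and IRG genes, against 8.34% of tested genes and 8.30% of all promoters. Of the 10 class I antigen-processing genes with a promoter, 2 held the response element core and 1 the gamma-activated site. The Y box core was in 8 of 8 MHC class II genes and 11 of 12 class I genes, but also in 43.0% of tested genes and 37.4% of all promoters. It was likewise in 14 of 14 cholesterol synthesis genes, a list that fell. None of the class II promoters held the response element core. A match of letters is a description of the sequence and not evidence of binding.

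MHC class I genes were the most abundant part of the response. H2-K1, a classical class I heavy chain (chromosome 17, from 33996012 to 34000619), measured 308, 412, 342 and 445 TPM in WT and 2775, 2824, 2029 and 2058 TPM in KOA, a difference of 2.68 ± 0.15 (SE, adjusted p 2.1e-05). Libraries 1 and 2 were above 3 and 4, and the lowest KOA library was 4.56 times the highest WT library. B2m, the light chain that every class I molecule needs, measured 462, 679, 509.9 and 618 TPM and 2523, 2462, 2402 and 2289 TPM (2.11 ± 0.11 SE, adjusted p 1.7e-05), with little difference between the pairs.

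All 12 tested class I genes were called higher, against 14.9% of all genes, with a median difference of 1.96 (2.02 and 1.94 in the pairs). Summed, they took up 1315 to 1795 TPM in WT and 8673, 8567, 7214 and 7194 TPM in KOA. H2-D1 and the Qa-region gene H2-Q4 rose by 2.24 and 3.21. H2-Q8, H2-Q7 and H2-Q9 were among the 15 largest rises (5.48, 4.66 and 4.16); they are close copies of each other, so how reads were shared among them makes each single value uncertain.

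The machinery that cuts and loads class I peptides rose with them, with a median difference of 1.17. Of 12 tested genes, 10 were called higher (14.9% of all genes). In 9 of the 12 all 4 KOA libraries lay above all WT libraries (18.1% of all genes). Psmb8, an inducible proteasome subunit, measured 8.87, 15.1, 7.81 and 16.5 TPM in WT and 269, 224, 176 and 183 TPM in KOA (4.08 ± 0.24 SE, adjusted p 2.2e-05). Psmb9, another inducible proteasome subunit encoded near it, measured 6.64, 10.3, 7.31 and 9.51 TPM and 174, 141, 109 and 106 TPM (3.81 ± 0.18 SE, adjusted p 1.3e-05). The lowest KOA library was 10.7 times the highest WT library for Psmb8 and 10.3 times for Psmb9. Tap1 and Tap2, the transporter that brings peptides into the endoplasmic reticulum, rose by 3.33 and 2.71 (adjusted p 2.1e-05 and 2.1e-05), and Tapbp, which bridges it to class I, by 1.38 (adjusted p 2.2e-05). The chaperones Pdia3 and Calr were not called.

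MHC class II genes, which most epithelial cells keep low until exposed to interferon-gamma, showed the largest median of any list, 3.65. All 8 tested genes were called higher, against 14.9% of all genes. Cd74, the invariant chain, measured 28.6, 41.7, 25.1 and 44.6 TPM in WT and 1001, 894, 407 and 456 TPM in KOA (4.19 ± 0.32 SE, adjusted p 7.8e-05). H2-Ab1, a chain of the surface molecule I-A, measured 11.8, 17.3, 11.9 and 17.4 TPM and 365, 302, 149 and 166 TPM (3.9 ± 0.29 SE, adjusted p 7.2e-05). KOA libraries 1 and 2 averaged 2.19 times the level of 3 and 4 for Cd74 and 2.12 times for H2-Ab1, and all 4 were far above WT. H2-Aa and H2-Eb1 rose by 3.69 and 4.09 (adjusted p 0.00012 and 6.3e-05), and the peptide-exchange chains H2-DMa and H2-DMb1 by 2.56 and 3.61 (adjusted p 0.00097 and 7.7e-05).

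Values of other class II-expressing cell types stand beside this result, and their part in it was not tested. The median of the class II list was 4.15 in libraries 1 and 2 and 3.15 in libraries 3 and 4, the order that Ciita had. The macrophage markers had a median difference of −0.46 in libraries 1 and 2 and 1.09 in 3 and 4. Of 5 dendritic cell markers tested, 2 rose, against 14.9% of all genes called higher. They were Batf3 and Ccr7, from at most 0.55 and 0.721 TPM in WT to 1.65, 1.63, 3.11 and 2.86 and 1.4, 1.23, 2.1 and 2.53 TPM in KOA. The 7 B cell markers in the table summed to 0.354 to 1.42 TPM in WT and 2.97, 1.81, 3.3 and 3.69 TPM in KOA libraries 1 to 4, all above WT. In 2 of the 7, Cd79b and Pax5, all 4 KOA libraries lay above all WT libraries, against 14.0% of the genes of the table with any value. Cd79b measured 0.0823, 0, 0.0807 and 0.0859 TPM in WT and 0.201, 0.442, 0.0954 and 0.0998 TPM in KOA, and 6 of the 7 were under 1 TPM in all 8 libraries. The transcription factor Pax5 rose from at most 0.176 TPM to 2.05, 0.772, 1.48 and 2.03 TPM (1.28 ± 0.20 SE, adjusted p 0.0028).

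**Figure D2:**
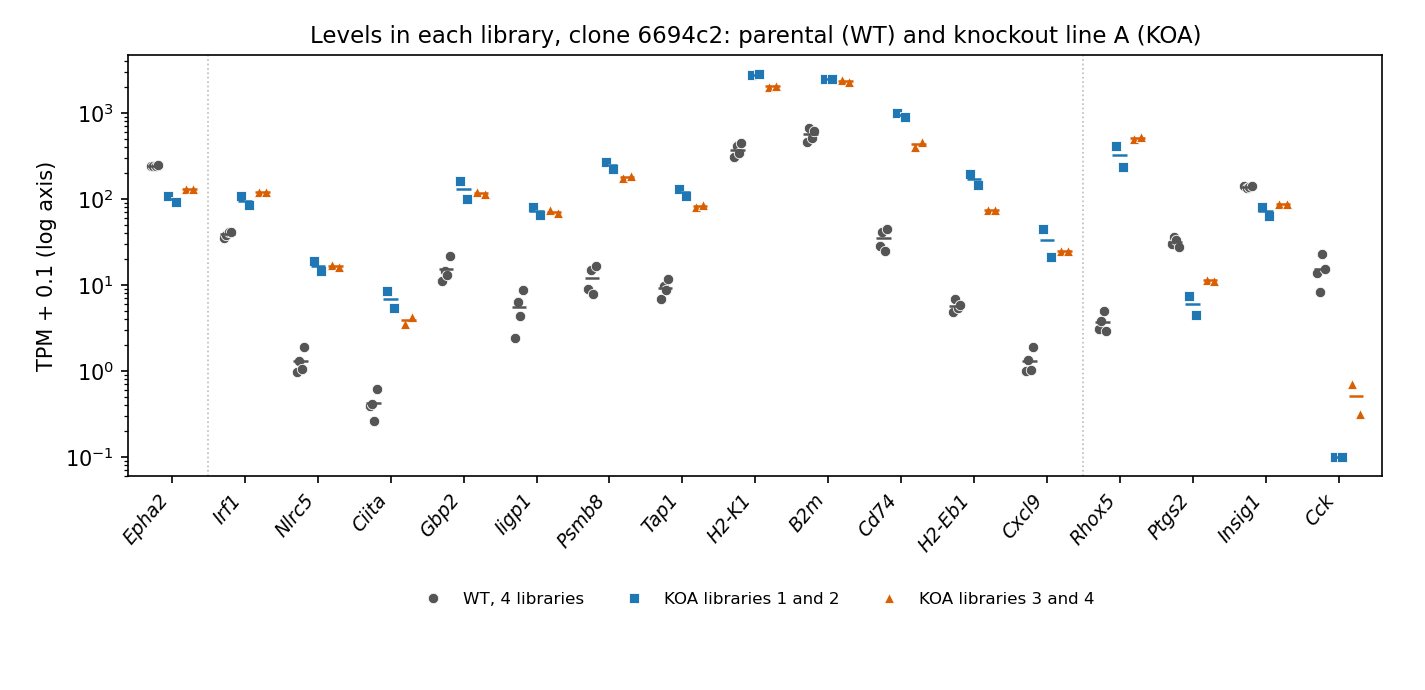
TPM plus 0.1 on a log axis in each library for Epha2, 12 genes of the interferon response and antigen presentation, and 4 other genes that rose or fell. Points are libraries and bars are means of WT, KOA libraries 1 and 2, and KOA libraries 3 and 4. The interferon-response and MHC genes lie above WT in all 4 KOA libraries, with Cd74 and H2-Eb1 higher in libraries 1 and 2 than in 3 and 4.

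Effectors of the type I interferon response, many of which interferon-gamma also induces, rose in 28 of 30 tested genes, against 14.9% of all genes. Their median, 0.92, was below those of the GBP and IRG, class I, antigen-processing and class II lists. Restricting the test to genes with a mean of at least 5 TPM left 18 called. That setting takes members under this mean out of the test, so the counts are not over the same genes. Zbp1, a sensor of nucleic acids, measured 5.92, 5.32, 7.08 and 6.31 TPM in WT and 41.7, 27.3, 31.3 and 34.5 TPM in KOA (2.27 ± 0.13 SE, adjusted p 2.2e-05). Isg15, a ubiquitin-like modifier, rose by 1.63 ± 0.11 (SE, adjusted p 4.7e-05), and the dsRNA-response gene Oasl2 by 1.67 ± 0.12 (SE, adjusted p 6.6e-05). Libraries 1 and 2 were slightly above 3 and 4 over the list (1.05 and 0.82).

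Chemokines that attract T cells rose in 6 of 8 tested genes (median 1.36), against 14.9% of all genes. Cxcl9, a ligand of CXCR3, a chemokine receptor of activated T cells, measured 0.899, 1.26, 0.937 and 1.78 TPM in WT and 45.3, 20.9, 25 and 24.9 TPM in KOA (3.71 ± 0.23 SE, adjusted p 3.0e-05). Cxcl10, another CXCR3 ligand, measured 8.49, 11.3, 12.9 and 11.7 TPM and 68.3, 36.9, 61.9 and 62.8 TPM (2.25 ± 0.20 SE, adjusted p 0.00017), with library 2 the lowest of the 4. Cxcl11 and Ccl5 rose from at most 0.838 and 1.53 TPM to at least 1.81 and 2.73 TPM (1.13 and 1.59).

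Among 14 checkpoint ligands and other inhibitors of T cells, 5 rose and 1 fell, against 14.9% and 8.05% of all genes. Ido1, which breaks down tryptophan, measured 2.11, 2.41, 1.89 and 5.14 TPM in WT and 30, 10.5, 13 and 15.6 TPM in KOA (2.2 ± 0.34 SE, adjusted p 0.0027). Cd274, which encodes PD-L1, measured 2.73, 4.32, 2.96 and 2.52 TPM and 7.16, 4.59, 7.8 and 7.65 TPM (0.91 ± 0.19 SE, adjusted p 0.0097), low in absolute terms and lowest in library 2. With libraries 1 and 2 alone, the Cd274 call was lost (0.73, adjusted p 0.053). Vtcn1, another inhibitory ligand of the B7 family, and Tnfrsf14 rose by 2.0 and 1.86 (adjusted p 0.0025 and 0.00017). Nt5e, the ectoenzyme that makes adenosine, fell from 109 ± 2.71 to 48 ± 7.05 TPM (SD, n = 4 each; −1.18 ± 0.10 SE, adjusted p 0.00015).

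Complement genes rose in 6 of 14 tested and none fell (median 0.59), against 14.9% and 8.05% of all genes. C3, the central component, measured 20.1, 28.3, 23.9 and 27.7 TPM in WT and 154, 269, 115 and 120.2 TPM in KOA (2.6 ± 0.25 SE, adjusted p 0.00027), and the protease C1s1 rose by 2.89 ± 0.16 (SE, adjusted p 1.7e-05). Library 2 was the highest for C3 and the lowest for C1s1. Serping1, an inhibitor of that protease, rose by 1.68 ± 0.15 (SE, adjusted p 0.00019). Ubd, a ubiquitin-like modifier encoded in the MHC and counted among the 15 largest rises, measured 0.339, 0.365, 0.117 and 1.12 TPM and 31.1, 13.1, 15.7 and 15.2 TPM (3.7 ± 0.29 SE, adjusted p 8.0e-05).

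The largest rise of all was not an interferon-response gene. Rhox5, a homeobox gene of a reproductive cluster (chromosome X, from 37754608 to 37808878), measured 3.0, 3.67, 4.88 and 2.84 TPM in WT and 412, 238, 503 and 525 TPM in KOA (6.47 ± 0.25 SE, adjusted p 7.0e-06). The lowest KOA library, library 2, was 48.9 times the highest WT library. Xlr, another X-linked gene best known from lymphocytes and germ cells, measured 0.587, 0.514, 0.194 and 0.319 TPM and 11.6, 12, 26.2 and 21.7 TPM (3.67 ± 0.26 SE, adjusted p 5.3e-05). Adgrg7, an adhesion-type receptor on chromosome 16, was listed at no more than 0.0666 TPM in WT and at 18.1, 14.7, 13.9 and 11.3 TPM in KOA (3.89 ± 0.14 SE, adjusted p 7.0e-06). All 3 were among the 15 largest rises, of which the other 12 were Cd74, H2-Aa, H2-Ab1, H2-Eb1, H2-Q7, H2-Q8, H2-Q9, Psmb8, Psmb9, Cxcl9, Ubd and Iigp1. For genes this low in one group, the size depends on the pseudocount: with 0.1 in place of 1, Adgrg7 differed by 6.78, Ciita by 3.66, Pax5 by 3.62, Batf3 by 2.21, Ccr7 by 1.7, Cxcl11 by 1.82 and Ccl5 by 2.76.

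The first of the 15 largest falls so defined was Cck, the gut hormone cholecystokinin, which measured 13.8, 8.21, 23.2 and 15.3 TPM in WT and 0, 0, 0.611 and 0.214 TPM in KOA (−3.68 ± 0.29 SE, adjusted p 8.3e-05). Mgp, an inhibitor of tissue calcification, measured 49.1, 107, 67.6 and 66.7 TPM and 3.92, 3.68, 11.6 and 9.84 TPM (−3.24 ± 0.37 SE, adjusted p 0.00061). Both were lower in libraries 1 and 2 than in 3 and 4, and all 4 were far below WT. Chsy3, a chondroitin sulfate synthase, and Fzd8, a Wnt receptor, dropped from 9.99 ± 1.43 and 8.61 ± 0.87 TPM (SD, n = 4) to under 1 TPM in every KOA library (−3.06 and −2.83). With a pseudocount of 0.1 these became −4.69 and −4.34, and those of Cck and Serpinb12 −6.03 and −4.03.

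Next in the same list, Piezo2, a mechanically gated channel, measured 60.7, 60.9, 58.5 and 56.8 TPM in WT and 6.72, 6.27, 13 and 12.5 TPM in KOA (−2.57 ± 0.22 SE, adjusted p 0.00014). Bmp2, a growth factor of the TGF-beta family, measured 18.2, 18.5, 17.4 and 16.4 TPM and 1.64, 1.18, 6.61 and 6.14 TPM (−2.15 ± 0.40 SE, adjusted p 0.0065). The fall of Bmp2 was steeper in libraries 1 and 2 (−2.96) than in 3 and 4 (−1.34). Rasgrf1, a RAS exchange factor, the transcription factor Sall1 and the receptor phosphatase Ptprg fell too (−2.44, −2.1 and −2.0). Auts2, a nuclear regulator, fell (−2.36), and library 2 stood apart at 2.76 TPM against 0.31 to 0.349 TPM in the other KOA libraries.

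The remaining 5 were Ambp, a secreted plasma protein precursor, the glutathione transferase Gsta1, the calcium-binding S100g, the serpin Serpinb12 and Cidec, a lipid droplet protein. Ambp went from 193 ± 23.6 to 45.7 ± 14.5 TPM (SD, n = 4 each; −2.09 ± 0.19 SE, adjusted p 0.00019). Gsta1, S100g and Cidec were lower in libraries 3 and 4 than in 1 and 2 (for Gsta1 −3.11 against −1.54). Gsta1 shares most of its sequence with other transferases of its family, so its value is uncertain. The Cidec call (−2.0 ± 0.52 SE, adjusted p 0.026) was lost without any 1 of the 4 WT libraries or KOA library 4 (adjusted p 0.053 to 0.074), and with libraries 1 and 2 alone the difference was −1.05 (adjusted p 0.053). Ptgs2, the inducible prostaglandin synthase COX-2, measured 30.2, 36.1, 33.5 and 27.8 TPM and 7.36, 4.43, 11.3 and 11.2 TPM (−1.85 ± 0.25 SE, adjusted p 0.0014), lowest in libraries 1 and 2. Over its pathway, 3 of 12 tested genes rose and 3 fell, against 14.9% and 8.05% of all genes.

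Genes of the cholesterol synthesis list, which the factor SREBP2 controls, fell together by a small amount. Of 22 tested, 18 were called lower and none higher, against 8.05% and 14.9% of all genes. The median was −0.47, −0.54 in libraries 1 and 2 and −0.48 in 3 and 4. Insig1, a sterol-sensing feedback gene, measured 141, 134, 139 and 141 TPM in WT and 81.3, 63.3, 88.5 and 88.3 TPM in KOA (−0.79 ± 0.10 SE, adjusted p 0.0012). Hmgcs1, at the entry of the pathway, went from 108 ± 3.91 to 67.1 ± 8.36 TPM (SD, n = 4 each; −0.68 ± 0.09 SE, adjusted p 0.0011). Msmo1, a sterol oxidase of the pathway, fell as well (−0.69, adjusted p 0.0019). Library 2 was the lowest for Insig1, Hmgcs1 and Msmo1.

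Stress and growth lists moved little or in part. Over all genes tested, 14.9% were called higher and 8.05% lower. In the unfolded protein and ATF4 response, 9 of 20 genes rose and 2 fell. Asns, which makes asparagine, rose from 22.4 ± 1.83 to 49.3 ± 10.2 TPM (SD, n = 4 each; 1.08 ± 0.14 SE, adjusted p 0.0011), while Atf4 itself fell (−0.34, adjusted p 0.0055). Of 19 p53 pathway genes, 5 rose, among them Phlda3 (0.80 ± 0.06 SE, adjusted p 8.6e-05) and Btg2 (0.83 ± 0.08 SE, adjusted p 0.00025), and none fell. Of 26 hypoxia and glycolysis genes, 6 rose and 1 fell, a count that depended on single libraries (1 rise without WT library 3 and 3 without WT library 1 or 4). The fall was that of Slc16a3, the lactate exporter, from 146 ± 9.87 to 56.3 ± 8.34 TPM (SD, n = 4 each; −1.37 ± 0.11 SE, adjusted p 8.5e-05). The pairs differed over the hypoxia and glycolysis list. In libraries 1 and 2, 21 of its 26 genes lay above the WT range and 1 below it (23.8% and 22.4% of all genes). In libraries 3 and 4, 9 lay above and 9 below (44.5% and 17.4% of all genes). None of 20 G2/M genes and 2 of 20 G1/S genes were called.

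**Figure D3:**
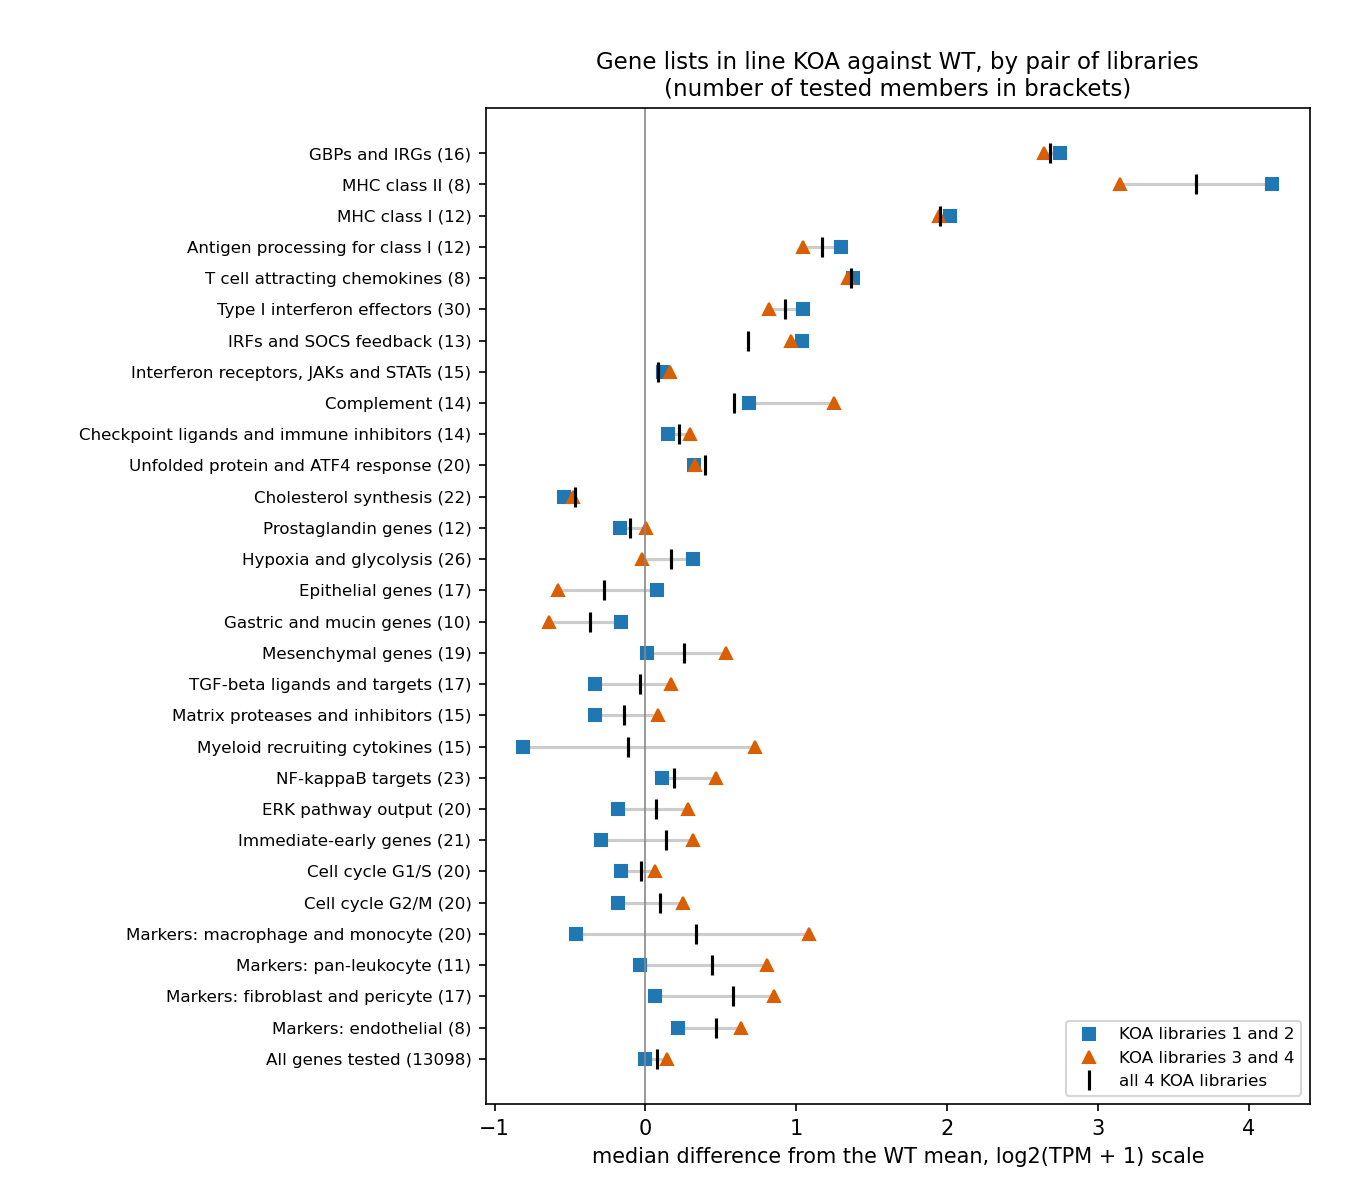
Median difference from the WT mean over the tested members of 29 gene lists and over all genes tested, on the log2(TPM + 1) scale, for KOA libraries 1 and 2 (squares), 3 and 4 (triangles) and all 4 (bars). The 6 lists at the top lie to the right of 0 in both pairs and cholesterol synthesis lies to the left in both, while the pairs lie on opposite sides of 0 for the myeloid-recruiting cytokines and the macrophage markers.

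The KOA pairs differed from each other in epithelial, inflammatory and stromal genes, and here the mean of the line hides what its libraries did. At least 1 log2 unit separated the nearest libraries of the pairs for 110 genes higher in libraries 1 and 2 and for 198 higher in libraries 3 and 4. Of these, 18 and 29 were called in the comparison with WT. The gap by which these genes were picked widens the spread within KOA in that fit, which makes a call less likely. No conclusion is drawn from these counts. Fitted alone against WT, libraries 1 and 2 gave 1495 higher genes (11.8% of 12636 tested) and 1434 lower (11.3%), and libraries 3 and 4 gave 4157 higher (32.6% of 12770 tested) and 1580 lower (12.4%). Libraries 3 and 4 both lay above the whole WT range at 5826 tested genes (44.5%) and below it at 2282 (17.4%). For libraries 1 and 2 the counts were 3121 (23.8%) and 2929 (22.4%).

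Epithelial genes were lower in libraries 3 and 4. Epcam, an epithelial adhesion molecule, measured 53, 10.8, 1.07 and 0.864 TPM in KOA libraries 1 to 4, against 13.3, 11.3, 13.9 and 10.2 TPM in WT. Library 1 lay above WT, library 2 within it, and libraries 3 and 4 far below it. Muc1, a membrane mucin, measured 76.2, 51.3, 9.86 and 12.4 TPM against 45, 38.9, 43.5 and 39.5 TPM, and the ductal keratin Krt7 349, 99.1, 36 and 33.3 TPM against 88.6, 86.4, 89.9 and 77.4 TPM. Of 17 epithelial genes tested, 15 lay below the WT range in libraries 3 and 4 (17.4% of all genes) and 2 in libraries 1 and 2 (22.4% of all genes). With all 4 libraries in the fit 2 were called, both lower: the tight junction genes Cldn7 (−1.6 ± 0.20 SE, adjusted p 0.00097) and Ocln (−0.96 ± 0.26 SE, adjusted p 0.032), the latter lost without WT library 1, 2 or 4 or KOA library 3 or 4 (adjusted p 0.066 to 0.088), with libraries 1 and 2 alone or with no level filter (0.106 and 0.055). For Ocln, KOA library 1 overlapped WT. Over all genes tested, 8.05% were called lower in the fit of all 4 libraries.

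The 10 genes with the largest gaps in favour of libraries 1 and 2 included regenerating and antioxidant genes. Gpx2, a glutathione peroxidase of the gut, measured 28.4, 20.2, 0.979 and 1.48 TPM in KOA against 3.57, 2.85, 5.27 and 2.89 TPM in WT. Reg1 and Reg3b, secreted proteins made by injured pancreas, measured 112, 121, 26 and 23.2 TPM and 267, 239.7, 60 and 56.5 TPM, against at most 15.4 and 55.3 TPM in WT. For Gpx2, libraries 1 and 2 lay above WT and 3 and 4 below it; for both Reg genes all 4 lay above WT, libraries 1 and 2 by more. Sftpd, a surfactant lectin, measured 15.7, 9.91, 0.659 and 0.603 TPM against at most 1.3 TPM in WT. The other 6 were Epcam, Muc1, Hist2h3c2, Smim22, Rnf186 and Kif12, of which the histone gene has near-identical copies.

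In favour of libraries 3 and 4, the 10 largest gaps were those of Dusp2, Hhip, Gfra2, Aif1l, Il11, Cdh15, Bst1, Mmp10, Cxcl1 and Bc1. Dusp2, a phosphatase of MAP kinases, measured 2.11, 1.2, 21.4 and 25.6 TPM in KOA against 2.32, 2.28, 2.18 and 1.89 TPM in WT. Il11, a cytokine that acts on stromal cells, measured 13.3, 12.9, 64.5 and 66.5 TPM against 4.45, 4.92, 5.05 and 4.71 TPM. For Dusp2 library 1 lay within WT and library 2 below it, for Il11 both lay above WT, and libraries 3 and 4 were the highest for both genes. Hhip, a hedgehog-binding protein, measured 1.63, 2.37, 23.3 and 20.6 TPM against at most 0.696 TPM in WT.

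Some cytokines that recruit myeloid cells lay on opposite sides of WT in the pairs. Cxcl1, which attracts neutrophils, measured 30.3, 8.75, 124 and 129.6 TPM in KOA libraries 1 to 4 against 52, 68, 58.2 and 57.6 TPM in WT. Csf2, a growth factor of granulocytes and macrophages, measured 15.6, 3.58, 44.5 and 45.5 TPM against 38.9, 32.8, 38.7 and 35.1 TPM. Libraries 1 and 2 lay below WT for both genes, library 2 lowest, and libraries 3 and 4 lay above it. Over 15 tested genes the median difference was −0.81 in libraries 1 and 2 and 0.73 in libraries 3 and 4, with 8 of the 15 below the WT range in the first pair (22.4% of all genes) and 8 above it in the second (44.5% of all genes). In the fit of all 4 libraries none rose and 1 fell, Cx3cl1, a membrane-bound chemokine (−0.65 ± 0.11 SE, adjusted p 0.0046).

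Gastric and mucin genes were mixed, with 2 of 10 tested genes called higher and 2 lower, against 14.9% and 8.05% of all genes. Tff2, a trefoil peptide of gastric mucus, measured 996, 875, 363 and 378 TPM in KOA against 135, 237, 258 and 205 TPM in WT (1.53 ± 0.37 SE, adjusted p 0.019), and the difference was 2.2 in libraries 1 and 2 and 0.87 in 3 and 4. Agr2, which folds mucins, measured 16.4, 1.47, 22.6 and 20.8 TPM against at most 1.49 TPM (3.07 ± 0.70 SE, adjusted p 0.016), and KOA library 2 overlapped WT. With a pseudocount of 0.1 the difference of Agr2 was 4.93 and that of the claudin gene Cldn7, described above, −2.67. The gastric protease Ctse measured 223, 232, 79.3 and 92 TPM against 416, 346, 334 and 397 TPM (−1.41 ± 0.35 SE, adjusted p 0.021; −0.70 and −2.11 in the pairs). Anxa10, an annexin of gastric epithelium, fell (−1.62 ± 0.43 SE, adjusted p 0.028; −0.81 and −2.42 in the pairs). The other 6 of 10 tested genes were not called. The call of Tff2 was lost without WT library 1 (adjusted p 0.054), that of Ctse without WT library 1 or 4 or KOA library 4 (0.053 to 0.060), that of Anxa10 without WT library 1, 3 or 4 or KOA library 3 or 4 (0.056 to 0.077) or with libraries 1 and 2 alone (0.052), and that of Agr2 with libraries 1 and 2 alone (0.081).

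**Figure D4:**
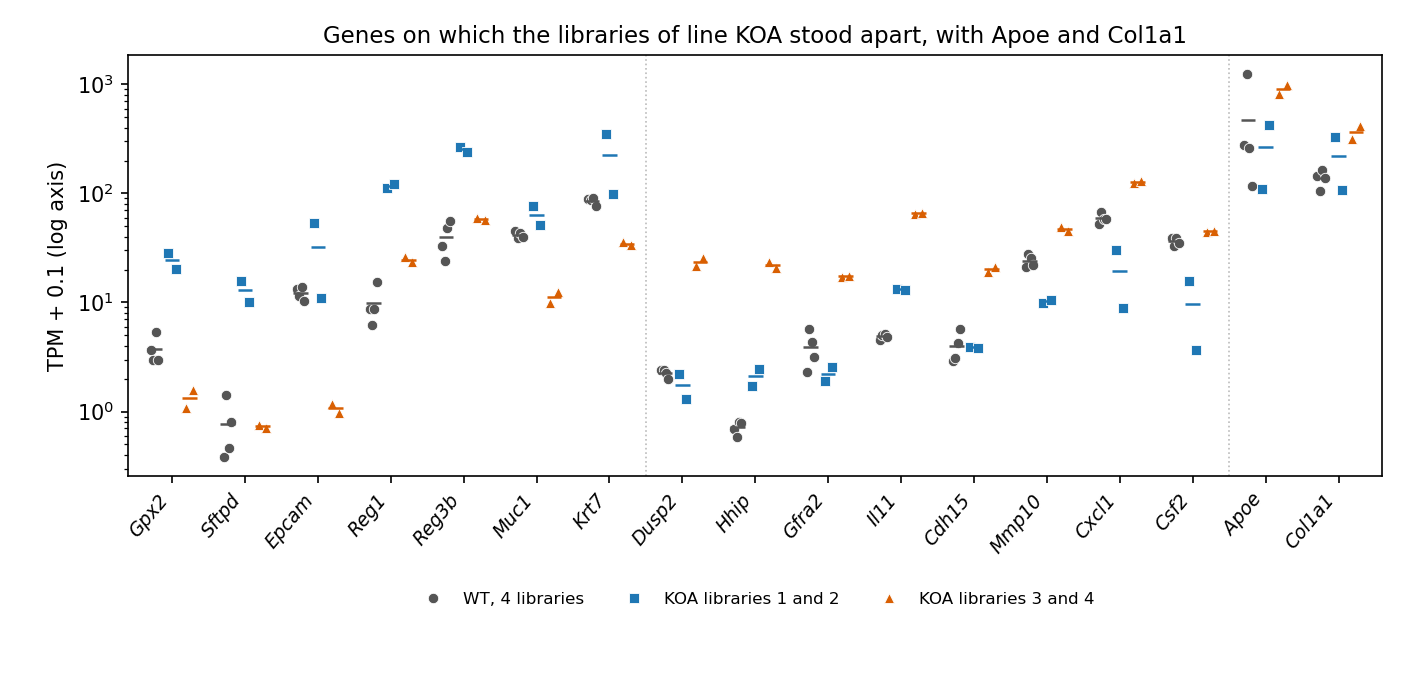
TPM plus 0.1 on a log axis in each library for 7 genes higher in KOA libraries 1 and 2, 8 genes higher in libraries 3 and 4, and the macrophage and fibroblast markers Apoe and Col1a1. Bars are means of each set. Epcam, Muc1 and Krt7 lie below WT in libraries 3 and 4, and Cxcl1 and Csf2 lie below WT in libraries 1 and 2.

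Markers of other cell types also differed between the pairs. Apoe, abundant in macrophages, measured 109, 425, 816 and 982 TPM in KOA and 281, 1238, 261 and 117 TPM in WT, so libraries 3 and 4 lay between WT library 2 and the other WT libraries. The fibroblast and pericyte list had a median difference of 0.06 in libraries 1 and 2 and 0.85 in 3 and 4. Summed, it reached 514 to 648 TPM in WT and 998, 515, 1102 and 1293 TPM in KOA libraries 1 to 4. Of its 17 tested members 4 rose and 1 fell, against 14.9% and 8.05% of all genes. The pericyte marker Rgs5 measured 6.51, 8.7, 7.13 and 8.5 TPM in WT and 39.2, 35.7, 70.8 and 65.7 TPM in KOA (2.57 ± 0.22 SE, adjusted p 0.00016).

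Endothelial markers summed to 17.5 to 29.9 TPM in WT and 30.3, 29.5, 42 and 51 TPM in KOA. The only call among 8 tested, Cdh5, rested mainly on libraries 3 and 4 (3.65, 2.76, 14.5 and 15.1 TPM in KOA) and was lost without any 1 of the WT libraries or of KOA libraries 3 or 4 (adjusted p 0.073 to 0.102), with libraries 1 and 2 alone or with no level filter (0.051 and 0.065). The acinar elastase Cela1, the only 1 of 16 acinar and islet markers that passed the level filter, went from 58.8 ± 1.29 TPM in WT (SD, n = 4) to 39.5, 55.4, 23.8 and 24.8 TPM in KOA. Its call (−0.78 ± 0.24 SE, adjusted p 0.046) was lost without any 1 library other than KOA library 2 (adjusted p 0.060 to 0.108), with libraries 1 and 2 alone (0.0998), with no level filter (0.074) and under both other scalings (0.051 and 0.053). The part that these other cell types had in the differences between pairs was not tested.

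Whole chromosomes differed in their median. The 612 tested genes of chromosome 10 had a median difference of 0.33, and 46.2% of them were called higher. Chromosome 7 followed with 0.25 (989 genes, 33.8% higher), and chromosome 14 was lowest at −0.23 (444 genes, 36.3% called lower). For these chromosomes both pairs lay on the same side, 0.25 and 0.41 for chromosome 10, 0.20 and 0.29 for chromosome 7, and −0.28 and −0.19 for chromosome 14. On the X chromosome the medians of the pairs were 0.04 and 0.32. Chromosome 17, which carries the MHC, had a median of 0.16 (683 genes, 22.8% called higher). Such medians do not show the copy number of a chromosome, which was not measured.

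**Figure D5:**
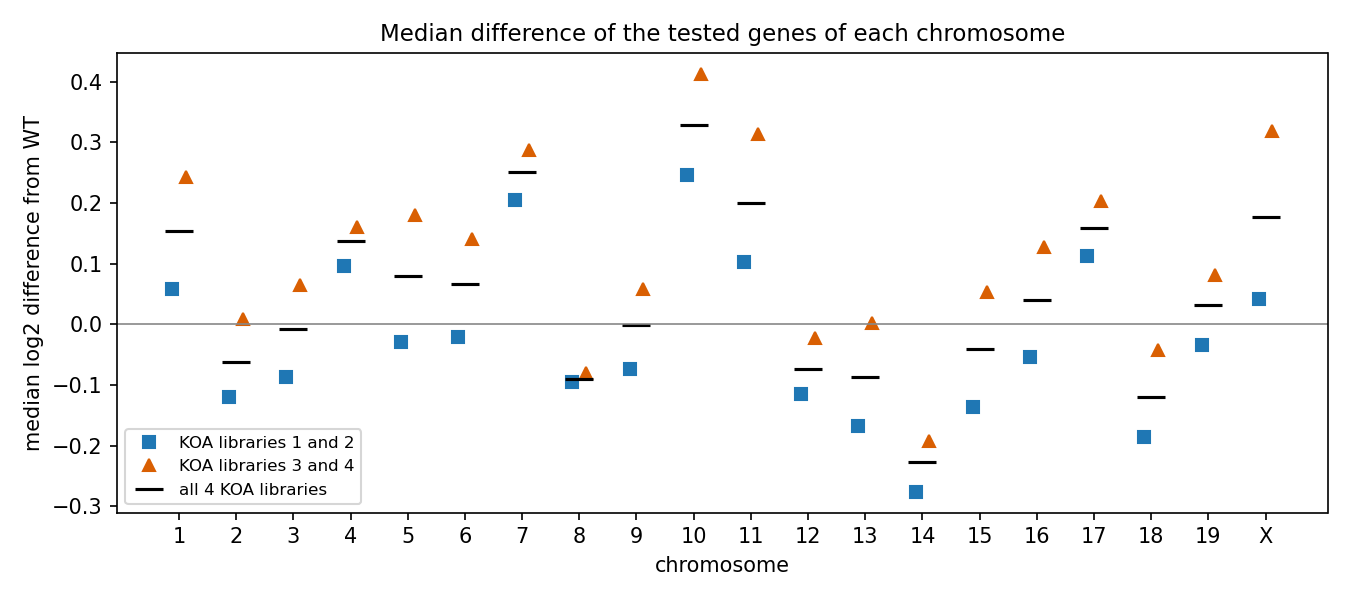
Median log2 difference from WT of the tested genes of each chromosome, for KOA libraries 1 and 2 (squares), 3 and 4 (triangles) and all 4 (bars). Chromosome 10 (0.33) and chromosome 7 (0.25) are highest and chromosome 14 (−0.23) is lowest in the 4 libraries together.

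The second knockout line of the clone, KOB, shares its WT libraries with KOA, so its values are given side by side and not as a separate test. Epha2 measured 88 to 113 TPM over the 4 KOB libraries. Cd74 (1226 to 1712 TPM) and Adgrg7 (21 to 30.2 TPM) reached or passed the KOA level, and Cck was listed at 0. Rhox5 (11.3 to 25 TPM), Rgs5 (1.31 to 1.57 TPM) and Il11 (0.633 to 1.33 TPM) were far lower in KOB than in KOA. Rhox5 still lay above WT in KOB, whereas Rgs5 and Il11, which lay above WT in KOA, lay below it in KOB. Gsta1, which fell in KOA, measured 130.5 to 208 TPM in KOB, above its WT level of 56.8 ± 18 TPM (SD, n = 4).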

How the data were processed

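Gene-level TPM had been made by the authors with Salmon against mm10, per the submitters' processing notes; versions and annotation are not given in the sources used here. Of the deposited TPM table (24623 genes, 21 libraries), the 4 WT and 4 KOA columns of 6694c2 were analysed. TPM keeps no depth, so no count test or interval was possible. Log2(TPM + 1) of 13098 genes was fitted with limma 3.58.1 (R 4.3.3; lmFit, eBayes with trend, Benjamini-Hochberg). On simulated data with 12717 genes, 200 of them changed, 85% of true differences of 1 and 98% of 2 were called, with 14 false calls. The simulated noise was independent between genes and libraries, without the split within KOA, and low genes were not changed. These shares therefore need not hold for the real libraries. Positions and promoters came from RefSeq (GRCm38.p6), 290 of 13074 placed symbols by a synonym. Named genes were the 15 largest called, non-overlapping rises and falls with a mean of at least 5 TPM, a fixed set, up to 4 genes of each of 45 lists by p, and 10 genes per direction by the gap between KOA pairs. Members and lists were chosen with earlier results of these data known. The 21 alternatives changed the pseudocount, filter, scaling, fit, weights, block or libraries. The exact test used scipy 1.17.1 under Python 3.11.15. Some genes are not reported here.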

Additional observations from a re-analysis of the deposited data

Results flagged for a closer look

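Over 238 sets of 4 libraries of the named genes, 9 values stood far from the other 3 of their group by Dixon's criterion. Chance gives about 1 such value in 20 sets, so 9 in 238 sets is no more than chance gives. In KOA library 2, Cxcl10 (36.9 TPM), Cd274 (4.59 TPM) and Agr2 (1.47 TPM) were the lowest of their line and Auts2 (2.76 TPM) was the highest. In KOA library 1, Stat2 was highest (15.2 TPM) and Phlda3 lowest (162 TPM). In WT, Serpinb12 was lowest in library 1 (2.26 TPM), Stat6 was lowest in library 3 (35.6 TPM) and Pax5 was listed above 0 in library 4 alone (0.176 TPM).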

How the results depend on the processing

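Of 90 called genes named in the text, 77 kept their call under each of the 21 alternatives in which they were tested. Ciita, Adgrg7 and Xlr, for example, missed the level filter with KOA libraries 1 and 2 or 3 and 4 alone and had no test there. The losses of the others are given beside their values, apart from those under the replicate block. Depth is unknown, and the spread between libraries is the only error. Leaving out 1 library at a time gave 1823 to 4454 called genes, 1248 to 3146 higher and 567 to 1308 lower. Each such fit also holds fewer libraries, and the cause of these differences in count was not tested. The count of lower genes was 1698 with median-of-ratios size factors and 1822 with quantile normalization, which shift the centre of all differences. A mean of at least 5 TPM left 295 genes with a difference of at least 1 (213 higher, 82 lower), by testing fewer genes. KOA libraries 3 and 4 alone gave 5737 called genes, 4157 of them higher, and 208 lower by at least 1. Against libraries 1 and 2 or 3 and 4 alone, Epha2 differed by −1.29 and −0.91, with an exact p of 0.0667, the smallest for 2 against 4. The sign of 2 genes that were not called turned: Ifngr1 gave 0.072 with libraries 1 and 2 alone and −0.11 to 0.0055 when 1 library was left out, and Jak2 gave −0.27 and −0.061 to 0.28.

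With the library number as a replicate block, 1938 genes were called (1276 higher, 662 lower), and Efna5, Cd274, Tff2, Agr2, Cdh5, Cd3d, Cela1 and Stat6 lost their calls (adjusted p 0.0502 to 0.072). WT and KOA libraries of the same number share only that number: the correlations of their deviations from the group means were 0.04, −0.07, 0.06 and −0.15, and 1 of 4 WT libraries correlated best with the KOA library of its own number.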
